A study of Arabidopsis thaliana with 2 samples.

Results

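Genes of the circadian clock and a set of its direct outputs were compared between wild-type and npr1-1 leaves of cold-treated Arabidopsis thaliana. The set was a list of 37 gene IDs named by function, out of 18345 genes in the deposited tables. Its members were chosen with earlier results of these data known. It held the MYB-like factors CCA1 and LHY with their REVEILLE (RVE) relatives, the pseudo-response regulators (PRR), GI and the ZTL family, the evening complex, the LNK co-activators, COR27 and COR28, CHE, the CDF repressors with CO, the RNA-binding proteins GRP7 and GRP8, and the growth regulators TZP, PIF4 and PIF5. From textbook knowledge 20 members were placed in a morning group and 14 in an evening group, and 3 (ZTL, LKP2 and CHE) were given no phase. Earlier results of these data were also known when the phases were set. Both groups of samples were leaves of 2-week-old plants raised in long days at 90 µmol of photons per square metre per second and then held at 4 °C for 24 h, still in long days, at 40 µmol. The wild type was the accession Col-0. The mutant npr1-1 carries a point mutation in NPR1, the co-activator through which salicylic acid switches on defence genes. Each genotype was represented by 1 library, and how many plants went into each is not stated in the labels. Nor is the hour of harvest, so a difference in genotype and a difference in harvest time cannot be told apart for rhythmic genes.

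The plant clock is a loop of transcription factors that repress and activate one another in sequence through the day. CCA1 and LHY accumulate around dawn and repress evening genes, the PRR proteins follow in waves from morning to dusk and repress CCA1 and LHY, and the evening complex of ELF3, ELF4 and LUX represses morning genes and growth at night. RVE8 and its relatives, with the LNK proteins, activate the evening genes. CCA1, LHY and the RVE proteins bind the evening element, a short motif before many evening genes, and in the cold the loop loses amplitude while several of its members also take part in cold signalling.

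The stretches below show where such motifs lay before members with large differences between the libraries, together with GRP7, whose window holds 3 evening elements. Each is the 200 bases before the outermost annotated start in TAIR10.1, written 5′ to 3′ in the direction of the gene. Capitals mark the evening element (AAAATATCT), the CCA1-binding site (AAAAATCT) and the G-box (CACGTG), on either strand.
COR28 (chr4:16285230-16285429, minus strand): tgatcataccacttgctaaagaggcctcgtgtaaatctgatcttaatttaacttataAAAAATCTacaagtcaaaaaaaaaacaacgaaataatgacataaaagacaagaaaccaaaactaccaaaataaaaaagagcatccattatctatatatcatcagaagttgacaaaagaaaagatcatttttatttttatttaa
FKF1 (chr1:25508439-25508638, plus strand): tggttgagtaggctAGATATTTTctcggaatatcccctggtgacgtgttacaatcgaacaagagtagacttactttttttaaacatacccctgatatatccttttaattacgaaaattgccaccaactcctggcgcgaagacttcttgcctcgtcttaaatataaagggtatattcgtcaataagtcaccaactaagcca
LUX (chr3:17182842-17183041, plus strand): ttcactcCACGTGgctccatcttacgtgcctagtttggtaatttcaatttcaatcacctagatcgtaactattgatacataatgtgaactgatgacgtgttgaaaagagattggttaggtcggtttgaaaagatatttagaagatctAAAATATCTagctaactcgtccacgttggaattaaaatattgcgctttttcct
RVE7 (chr1:6308244-6308443, minus strand): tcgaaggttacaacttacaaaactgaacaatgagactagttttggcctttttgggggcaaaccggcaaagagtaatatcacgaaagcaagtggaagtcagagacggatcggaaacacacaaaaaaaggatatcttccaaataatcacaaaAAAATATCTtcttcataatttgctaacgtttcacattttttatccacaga
RVE1 (chr5:5692993-5693192, minus strand): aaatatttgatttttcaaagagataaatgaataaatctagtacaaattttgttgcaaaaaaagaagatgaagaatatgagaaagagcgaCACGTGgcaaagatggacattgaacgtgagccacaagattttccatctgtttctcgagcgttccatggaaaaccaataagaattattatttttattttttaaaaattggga
GRP7 (chr2:9266558-9266757, minus strand): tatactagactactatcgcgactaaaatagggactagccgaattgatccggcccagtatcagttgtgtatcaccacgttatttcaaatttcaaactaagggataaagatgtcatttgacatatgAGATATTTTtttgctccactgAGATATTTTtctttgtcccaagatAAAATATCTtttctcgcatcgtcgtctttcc

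In TAIR10 the deposited gene models of these members lie at chr4:16282696-16285059 (COR28), chr1:25508676-25510889 (FKF1), chr3:17183070-17185218 (LUX), chr1:6305971-6308010 (RVE7) and chr5:5690227-5692902 (RVE1). COR28, which had the largest difference of all members, held a CCA1-binding site and no evening element in this window. The evening gene LUX and the morning gene RVE7 each had an evening element close to the start, at 53 and 50 bases, yet LUX was lower and RVE7 higher in the npr1-1 library. A match describes the letters of the window and is not a measured binding site.

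Expression is given in CPM, the share of a gene in each 1000000 counted reads of its library. The wild-type library held 50864103 reads and the npr1-1 library 50976521. NPR1 itself was listed at 22.02 and 18.7 CPM, a level that does not check a point mutation. The 5 leaf markers summed to 40540 CPM in the wild type and 45494 CPM in npr1-1, higher in npr1-1 for 5 of 5, and their part in the results was not tested. Of 4 root markers 1 was listed, BGLU23, at 47.2 and 48.8 CPM, and 0 of 6 seed and flower markers was. The difference between the libraries ran with the length of the gene model: its median on the log2 scale, npr1-1 minus Col-0, was 0.11 for the shortest of 20 length classes and -0.11 for the longest. In the reference 7 of the 37 members share bases with another gene, in each case on the opposite strand, and whether reads were counted by strand is not given in the sources used. With 1 library per genotype no difference had a replicate check, no p-value was computed, and the 95% intervals below cover counting error only. In bulk leaves fewer cells and less RNA per cell cannot be told apart.

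The comparison asked whether clock transcripts in the cold differ when NPR1 is mutated. No member was 2-fold apart. COR28 and COR27 had the largest differences, and among the genes that were lower in the npr1-1 library they were followed by FKF1, LUX, LNK1 and ELF4. RVE7 and RVE1 had the largest differences in the other direction, higher in npr1-1. The dawn factors CCA1 and LHY lay inside the 25% limit.

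Differences are given as log2(CPM + 1) in npr1-1 minus Col-0, for genes that reached 5 CPM in either library, which stands for 254 reads in the wild type. Of the 37 members 36 reached this level, BOA being the exception. At 2-fold 0 of the 36 were apart, against 0.730% of all 13976 genes past the minimum. At 1.5-fold 2 were apart, COR28 and COR27, against 2.97% of all genes. A lower limit was set at 25%, a log2 difference of 0.322 in either direction. Past the 25% limit were 8 of the 36, against 15.2% of all genes. Of these 8, 6 were lower (9.09% of all genes) and 2 were higher (6.11% of all genes). Under median-ratio scaling 5 members were lower and 3 higher past it, ELF4 dropping out and CHE coming in. Before that scaling ELF4 lay just past the limit at -0.323 and CHE just short of it at 0.320. The median difference of the 36 members was -0.07, against -0.05 for all genes, and 24 members were lower, 66.7% against 59.0% of all genes. Under median-ratio scaling 20 of the 36 were lower, and 6988 of the 13976 genes. The median size of the difference, whatever its sign, was 0.17 for the members and 0.14 for all genes. As a group the members thus lay close to the whole table.

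**Figure D1:**
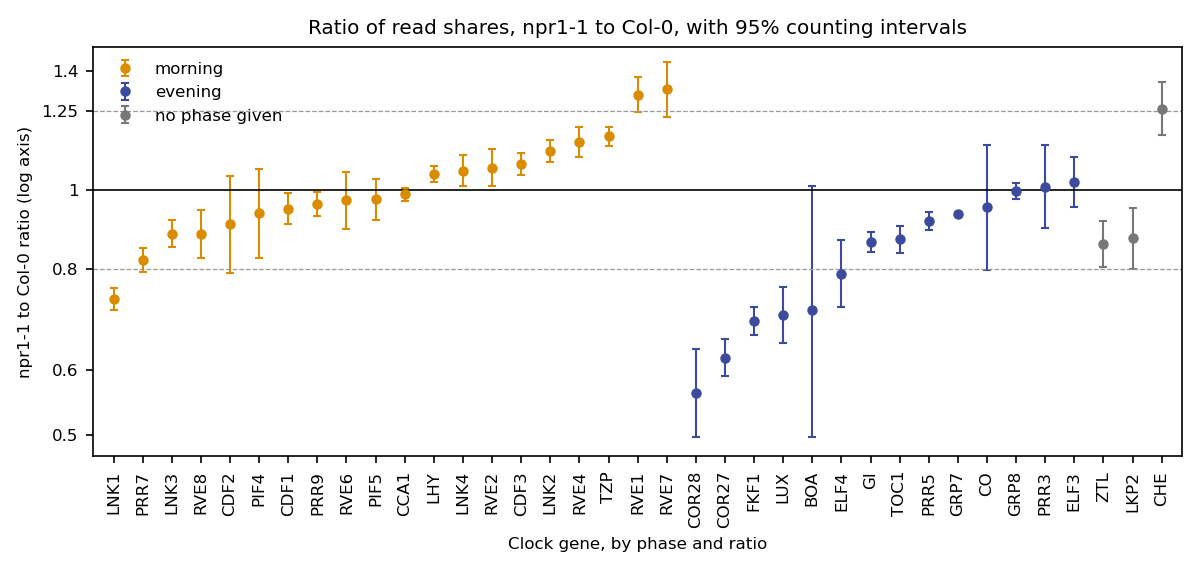
The npr1-1 to Col-0 ratio of each clock gene on a log axis, from the recovered reads of 1 library per genotype, with 95% counting intervals as bars and dashed lines at the 25% limit. The evening genes COR28, COR27, FKF1 and LUX lie lowest, at ratios from 0.563 to 0.701, and the morning genes RVE1 and RVE7 highest, at 1.31 and 1.33. The differences of CCA1, GRP8, RVE6 and PIF5 change sign under median-ratio scaling.

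Most evening genes were lower in npr1-1, while morning genes went both ways. Of the 13 evening genes past the minimum 11 were lower (10 under median-ratio scaling), 5 of them past the 25% limit (4 under that scaling), and 0 were higher by that much. Of the 20 morning genes 11 were lower and 9 higher (8 and 12 under median-ratio scaling), 1 being lower and 2 being higher past the 25% limit. ZTL, LKP2 and CHE, given no phase, are in neither count. ZTL and LKP2 were lower, at ratios of 0.858 and 0.872, and CHE was higher, at 1.26. Under median-ratio scaling CHE, at 0.367, was also past the 25% limit. Of all genes 59.0% were lower and 41.0% higher, with 9.09% lower and 6.11% higher past that limit. Under median-ratio scaling 6988 of the 13976 genes were lower. The share of lower genes was thus 84.6% in the evening group, above that of all genes, and 55.0% in the morning group, slightly below it. The median difference was -0.20 for the evening genes and -0.03 for the morning genes, so that the evening median was lower by a difference of -0.17. The phases were set with earlier results of these data known. Both groups shared the same pair of libraries, and no test of this difference was made. Without COR27 and COR28 it was -0.10, and as a difference of means it was -0.27. The morning median turned to 0.020 under median-ratio scaling. The evening gene models had a median length of 1416.5 bases and the morning models 1785.5, and with the trend by length subtracted the evening median was -0.11 and the difference between the groups -0.17.

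**Figure D2:**
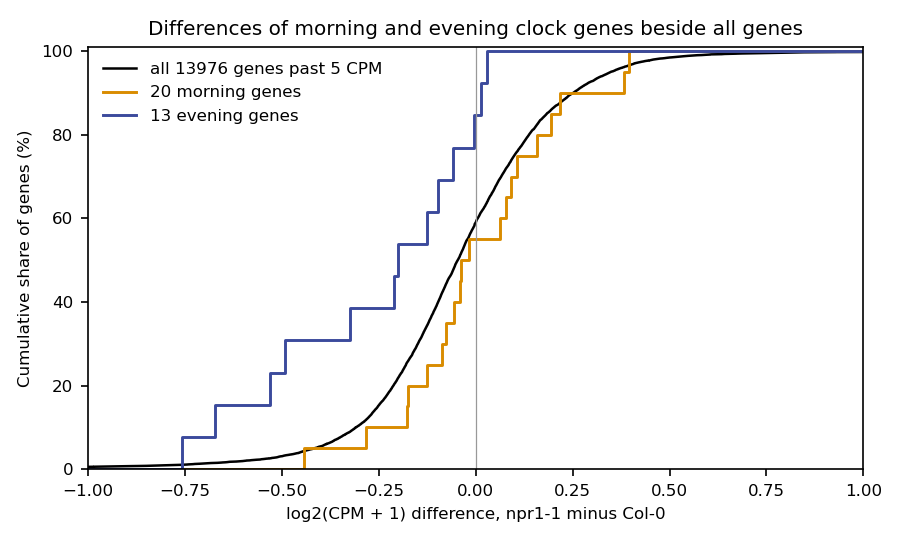
Cumulative share of genes (vertical axis, %) by log2(CPM + 1) difference, npr1-1 minus Col-0, for all 13976 genes past 5 CPM, 20 morning and 13 evening clock genes. The evening curve lies to the left of the others over most of its course, with 84.6% of its genes below 0, while the morning curve has 55.0% below 0 and stays closer to that of all genes.

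Among the MYB-like factors CCA1 (AT2G46830), which represses evening genes, stood at 518 CPM in the wild type and 512 CPM in npr1-1, a ratio of npr1-1 to Col-0 of 0.988 with a counting interval from 0.971 to 1.005. LHY (AT1G01060), its close partner, stood at 289.7 and 303 CPM, a ratio of 1.05 from 1.02 to 1.07. The difference of CCA1 turned from -0.02 to 0.03 under both other scalings, and that of LHY went from 0.06 to 0.11 under both and to 0.15 with the trend by length subtracted. The activators did not move together. RVE8 (AT3G09600), which switches on evening genes in the afternoon, stood at 36.1 and 31.9 CPM, while its nearest relative RVE4 (AT5G02840) stood at 78.9 and 90.3 CPM. RVE6 (AT5G52660) stood at 23.9 and 23.2 CPM, with an interval of the ratio that included 1.

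The MYB-like output factors held the members with the largest higher values in npr1-1, 3 of 3 being higher (41.0% of all genes) and 2 of 3 past the 25% limit (6.11% of all genes). RVE7 (AT1G18330), also called EPR1 and first known as a gene answering phytochrome, stood at 22.6 CPM in the wild type and 30.1 CPM in npr1-1, or 1149 and 1532 reads. Its ratio was 1.33, from 1.23 to 1.44. RVE1 (AT5G17300), which links the clock to auxin and growth, stood at 55.2 and 72.3 CPM, a ratio of 1.31 from 1.246 to 1.38. The RVE1 model shares 203 bases with AT5G17305 on the opposite strand. RVE2 (AT5G37260), also called CIR1, stood at 52.4 and 55.8 CPM. CCA1 and LHY, of the same protein family, had ratios of 0.988 and 1.05.

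Of the PRR genes 0 of 5 was past the 25% limit, against 15.2% of all genes. PRR7 (AT5G02810), a midday repressor of CCA1 and LHY, had the largest, at 142 CPM in the wild type and 116 CPM in npr1-1, a ratio of 0.821 from 0.793 to 0.849. PRR9 (AT2G46790), the earliest of the wave, stood at 139 and 134 CPM. PRR5 (AT5G24470), of the afternoon, stood at 227 and 208 CPM. TOC1 (AT5G61380), the evening member, stood at 112 and 97.5 CPM, a ratio of 0.870 from 0.837 to 0.904. PRR3 (AT5G60100), which protects TOC1 protein from breakdown, stood at 11.3 and 11.5 CPM. In 4 of the 5 the npr1-1 value was the lower, against 59.0% of all genes, with no order from morning to evening in the size of the difference. PRR9 turned to 0.02 when the trend by length was subtracted.

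Within the evening complex ELF3 stood apart from its partners. LUX (AT3G46640), the subunit that binds DNA and named PCL1 in the reference, stood at 30.04 CPM in the wild type and 21.1 CPM in npr1-1, or 1528 and 1074 reads, a ratio of 0.701 from 0.648 to 0.759. ELF4 (AT2G40080), a small protein that helps ELF3 act, stood at 19.1 and 15.1 CPM, a ratio of 0.789 from 0.717 to 0.868. ELF3 (AT2G25930), the scaffold, stood at 30.7 and 31.4 CPM, a ratio of 1.02 from 0.953 to 1.10. The intervals of LUX and ELF3 did not overlap, so the subunits differed in their ratios beyond counting error in these libraries. ELF3 shares 183 bases with AT2G08135 and 24 with ALPHA-VPE on the opposite strand, and neither of these was listed. BOA (AT5G59570), a relative of LUX, was below the minimum with 80 reads in the wild type and 57 reads in npr1-1, and its interval, from 0.497 to 1.01, included 1.

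All 4 genes of the GI and ZTL group were lower in npr1-1, as were 59.0% of all genes, and FKF1 had the lowest ratio of them. FKF1 (AT1G68050) encodes a blue-light receptor and F-box protein that, with GI, removes the CDF repressors in the afternoon. It stood at 113 CPM in the wild type and 78.0 CPM in npr1-1, or 5747 and 3975 reads, a ratio of 0.690 from 0.663 to 0.719. Its relatives ZTL (AT5G57360), which marks TOC1 and PRR5 for breakdown, and LKP2 (AT2G18915) stood at 39.1 and 33.5 CPM and at 22.4 and 19.5 CPM, ratios of 0.858 and 0.872. GI (AT1G22770), which stabilises ZTL, stood at 205 and 177 CPM, a ratio of 0.863 from 0.839 to 0.888. The interval of FKF1 overlapped none of these 3 genes. FKF1 and MAP70-1 on the opposite strand share 3 bases, and MAP70-1 stood at 57.3 and 46.1 CPM. LKP2 shares 370 bases with AT2G18917 on the opposite strand, which was not listed.

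The LNK co-activators, which RVE proteins recruit to evening promoters, went in both directions. LNK1 (AT5G64170) stood at 179 CPM in the wild type and 131 CPM in npr1-1, a ratio of 0.735 from 0.712 to 0.759, the lowest of all morning genes. LNK2 (AT3G54500), its partner in most known functions, stood at 147 and 164 CPM, a ratio of 1.12 from 1.08 to 1.15. LNK3 (AT3G12320) stood at 110.2 and 97.3 CPM, and LNK4 (AT5G06980) at 79.8 and 84.3 CPM. Each of the related pairs, LNK1 with LNK2 and LNK3 with LNK4, thus held 1 gene that was lower and 1 that was higher in npr1-1. LNK1 shares 245 bases with AT5G64160 on the opposite strand, which stood at 12.2 and 14.7 CPM and so was higher in npr1-1, where LNK1 was lower. LNK2 shares 266 bases with the non-coding gene AT3G08405 on the opposite strand, which was not listed. It also shares 93 bases with RPB5E, at 1.53 and 1.57 CPM.

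COR27 and COR28 encode small nuclear proteins that are induced by cold, are repressed by CCA1 in the morning, and in turn repress clock genes such as TOC1 and PRR5. COR27 (AT5G42900) stood at 69.5 CPM in the wild type and 43.2 CPM in npr1-1, or 3533 and 2202 reads. COR28 (AT4G33980) stood at 14.02 and 7.89 CPM, or 713 and 402 reads. Relative to Col-0 the ratios were 0.622, from 0.589 to 0.656, and 0.563, from 0.497 to 0.637, so the related genes were lower by nearly the same factor and their intervals overlapped. Their proposed targets TOC1 and PRR5 had ratios of 0.870 and 0.916, and a link to the COR27 and COR28 levels was not tested.

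Among outputs of the photoperiod pathway 0 of 4 was past the 25% limit, against 15.2% of all genes. CDF1 (AT5G62430), which represses CO and is itself removed through FKF1, stood at 82.3 CPM in the wild type and 77.98 CPM in npr1-1. CDF2 (AT5G39660) stood at 8.63 and 7.83 CPM and CDF3 (AT3G47500) at 139 and 149 CPM. CO (AT5G15840), the activator of the florigen gene FT in long days, was near the minimum at 5.13 and 4.88 CPM, and 1201 of its 1577 genomic bases are shared with AT5G15843 on the opposite strand, which makes its reads uncertain. The differences of the CDF genes and CO lay between -0.13 and 0.11, and a link to the lower FKF1 level was not tested.

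The RNA-binding genes GRP7 and GRP8 had the highest levels per kb of gene model among the members and lay inside the 25% limit. GRP7 (AT2G21660), an evening gene that limits its own messenger by splicing, stood at 3610.5 CPM in the wild type and 3375 CPM in npr1-1, a ratio of 0.935 from 0.929 to 0.941. GRP8 (AT4G39260) stood at 320.4 and 319.6 CPM, and its difference of -0.00 turned to 0.05 under median-ratio scaling. Among the growth regulators TZP (AT5G43630), which promotes growth of the seedling stem, stood at 201 and 234 CPM, a ratio of 1.16 from 1.13 to 1.195. PIF4 (AT2G43010) and PIF5 (AT3G59060), the bHLH factors held down by the evening complex at night, stood at 10.2 and 9.55 CPM and at 45.7 and 44.5 CPM. Both of their intervals included 1, whereas those of LUX and ELF4 did not, and a link between these levels was not tested. CHE (AT5G08330), a TCP factor that binds the CCA1 promoter and is also known to link the clock to salicylic acid synthesis, stood at 24.3 CPM in the wild type and 30.6 CPM in npr1-1, or 1235 and 1558 reads. Its ratio was 1.26, from 1.17 to 1.36, and the added pseudocount left its log2 difference just short of the 25% limit.

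The order of the levels was much the same in both libraries when each CPM was divided by the length of its gene model. GRP7 was highest at 4319 CPM per kb in Col-0 and 4037 in npr1-1, followed by GRP8 at 357 and 356, CCA1 at 228 and 226, LHY at 107 and 112, and PRR5 at 100.5 and 92.1. CO, at 3.82 and 3.63 CPM per kb, and BOA, at 1.08 and 0.771, were lowest. In all 12 of 37 members kept the same place, and the largest shift was of 7 places, that of COR27 from 11 to 18. LNK1 went from place 9 to 15. Counting intervals of 27 of the 36 members past the minimum excluded a ratio of 1 and those of 9 included it, and over all genes 60.2% excluded it at this depth.

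**Figure D3:**
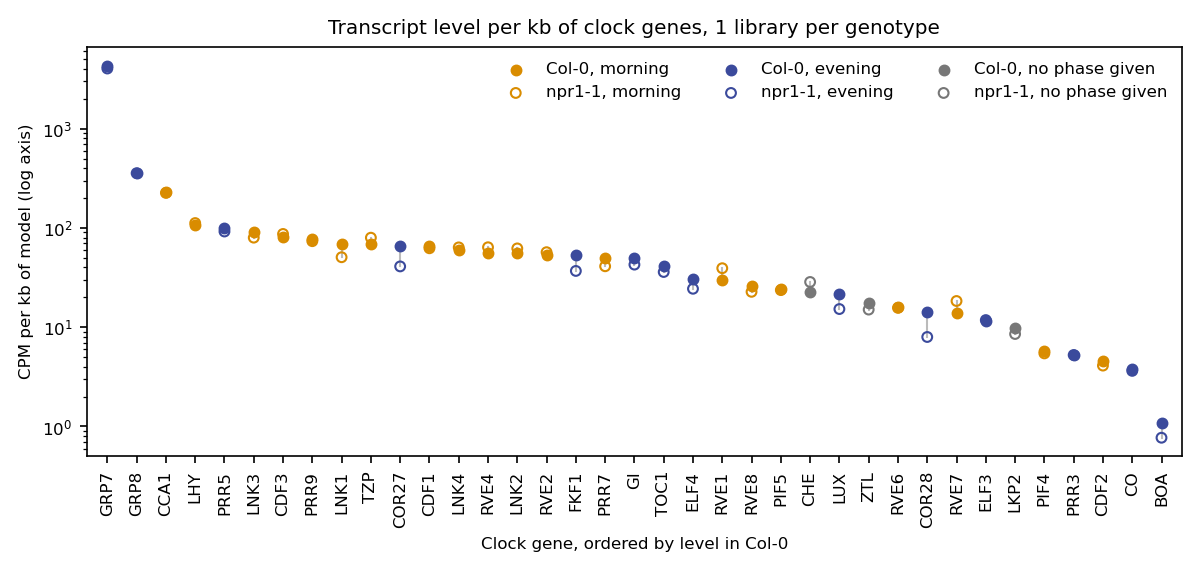
Level of each clock gene in CPM per kb of gene model (log axis), filled circles for Col-0 and open circles for npr1-1, 1 library each, ordered by the level in Col-0. Most pairs of circles overlap. Wide gaps are seen for COR28, COR27, FKF1, LUX, BOA and the morning gene LNK1, open circle lower, and for RVE7 and RVE1, open circle higher. BOA was below the minimum, with 80 and 57 reads, and the counting interval of its ratio included 1.

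Motifs were searched on both strands of the 300 bases before the outermost annotated start of 36 members and of 18237 deposited nuclear genes with a full window. The evening element was held by 6 of 13 evening genes and 2 of 20 morning genes, against 3.06% of all windows. The 6 were FKF1, LUX, BOA, TOC1, GRP7 with 3 and GRP8 with 1, and the morning genes were RVE7 and TZP. The element is already known as a motif before many evening genes. Its larger share in that group is therefore a description and not a new result. The G-box, bound by PIF and other bHLH or bZIP factors, was held by 9 of 20 morning genes and 2 of 13 evening genes, against 8.09% of all windows. The CCA1-binding site was held by 5 members, 13.9% against 8.09% of all windows. Of the other motifs searched, GATNCG, taken as the LUX-binding site, was held by 14 members (38.9% against 20.8%). Any base was allowed at N, so some matches may not be sites that LUX binds. The TGA element (TGACG), to which the partners of NPR1 bind, was held by 13 (36.1% against 21.96%). The cold-response core of the CBF factors (CCGAC) was held by 5 (13.9% against 15.4%) and the heat shock element (GAANNTTC) by 4 (11.1% against 11.3%). No match overlapped one of another motif in the windows of the members.

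**Figure D4:**
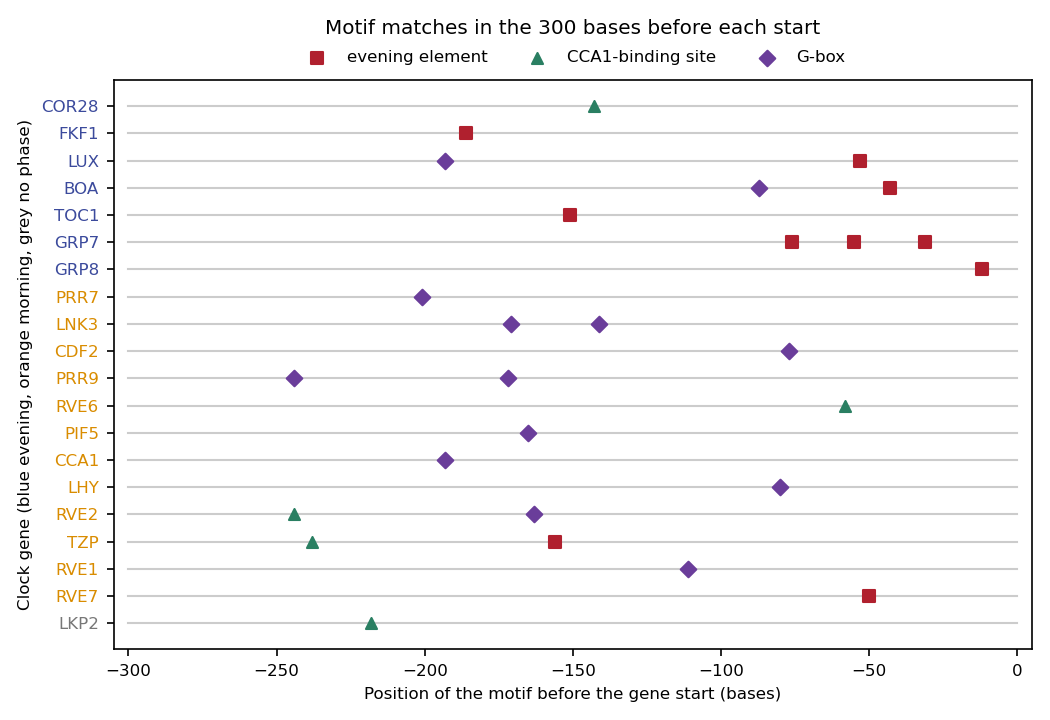
Positions of evening elements (squares), CCA1-binding sites (triangles) and G-boxes (diamonds) in the 300 bases before the start of each clock gene that holds at least 1, the horizontal axis giving bases before the start. Evening genes (blue names) hold most of the squares, many within 100 bases of the start, and morning genes (orange names) most of the diamonds.

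The difference varied widely among members with an evening element. Windows of 12 of the 13 evening genes past the minimum were analysed here. The 5 evening genes with the element that passed the minimum were all lower in npr1-1, GRP8 excepted under median-ratio scaling, with a median difference of -0.20 and a range from -0.53 for FKF1 to -0.00 for GRP8. The 7 of these 12 without it had a median of -0.13 and a range from -0.76 for COR28 to 0.03 for ELF3, so the ranges overlapped. GRP7, with 3 elements, had only -0.10, and the morning genes RVE7 and TZP with the element were higher, at 0.40 and 0.22. Across the whole table the 446 genes past the minimum that hold the element had a median of -0.07 and 64.6% of them were lower, against -0.05 and 58.9% for the 13450 genes without it. For the G-box the medians were -0.10 for 1156 genes with it and -0.04 for 12740 without.

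**Figure D5:**
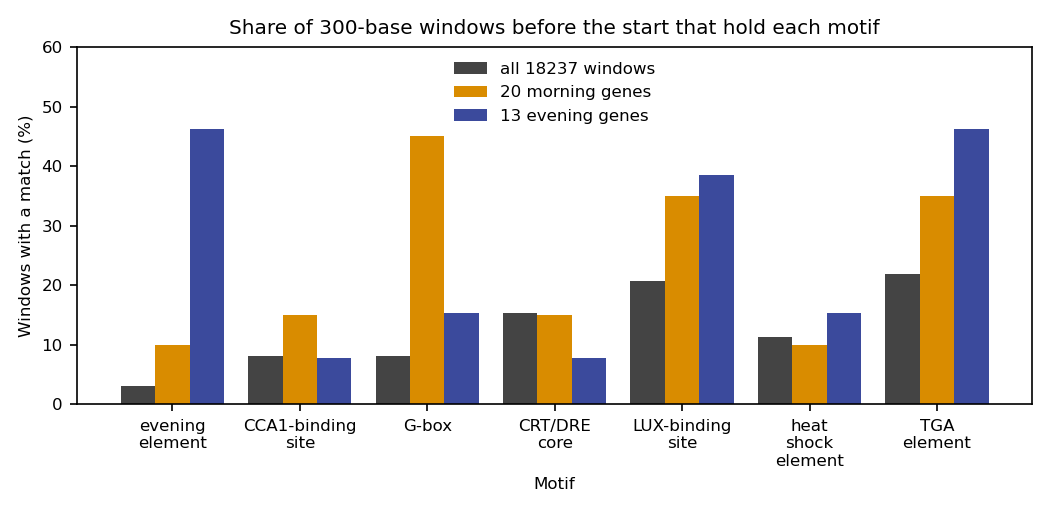
Share of 300-base windows (vertical axis, %) with at least 1 match of each motif, for all 18237 windows, 20 morning and 13 evening clock genes. The evening element stands in 6 of 13 evening genes against 3.06% of all windows, and the G-box at 45.0% of morning genes against 8.09%.

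Few related genes outside the set differed by 25%. Like the set, the lists of these genes were chosen with earlier results of these data known. In 3 further lists, of other clock-associated genes, of photoreceptors and light signalling, and of photoperiodic flowering and rhythmic outputs, 51 genes passed the minimum and 0 of them was past the 25% limit, against 8 of 36 members and 15.2% of all genes. By the ratio of reads, with no pseudocount, 3 of the 51 were past it (ELF4-L4, PIF3 and FBH1), against 9 of 36 members and 17.5% of all genes. Their median difference was -0.06. Among 21 other clock-associated genes the largest differences were those of ELF4-L4, a relative of ELF4, at 5.09 CPM in the wild type and 3.90 CPM in npr1-1, of the histone deacetylase gene HDA6 at 35.2 and 29.03 CPM, and of CKB3, a subunit of the kinase CK2 that phosphorylates CCA1, at 34.6 and 41.4 CPM. Among 21 light signalling genes they were those of PIF3 at 15.2 and 12.1 CPM, the red-light receptor PHYB at 96.6 and 81.5 CPM, and FHY3 at 48.2 and 41.04 CPM. Among 9 photoperiod and output genes they were those of the flowering integrator SOC1 at 88.6 and 71.99 CPM, FBH1, an activator of CO, at 6.11 and 7.65 CPM, and COL2 at 114 and 138 CPM. FT was on the list but no level of it was analysed here.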

How the data were processed

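RNA-seq libraries of Col-0 and npr1-1 leaves, 1 each, were analysed. The authors deposited CPM, per the file headers, with a decimal comma. The values summed to 1000000 per library, and 100% were whole multiples of 1 read within 0.01, which gave 50864103 reads in Col-0 and 50976521 in npr1-1. The submitters' processing notes name TopHat2, DESeq2 and the build TAIR10 without role or version. How reads were counted, whether by strand, how the listed genes were filtered and whether plants were pooled was not given in the sources used.

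The difference was log2(CPM + 1), npr1-1 minus Col-0, for genes that reached 5 CPM in either library. A pseudocount of 1 understates changes of low genes. With 1 library per genotype no test was run, and ratios carry exact conditional binomial (Clopper-Pearson) 95% intervals from the recovered reads. PCR copies are not separate molecules, so intervals cover counting error only. The procedure was tested on simulated data.

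Sequences were read from the RefSeq genome TAIR10.1, whose gene models overlapped 100% of the 18154 matched nuclear genes and shared a boundary with 37.2% of them. All 37 members matched. No member had a copy at 90% identity over at least 50% of its transcript (BLAST+ 2.17.0). The window before 1 member is not reported here and was left out of the motif counts. Base composition of the windows was not corrected for. Python 3.11.15, numpy 2.4.6, pandas 2.3.3, scipy 1.17.1 and matplotlib 3.10.9 were used.

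The members, phases, lists and motifs were chosen with earlier results of these data known. Named genes are all members and, of each related list, the 3 with the largest difference, with FT. The printed stretches, MAP70-1, RPB5E and other overlapping genes were chosen after values were seen.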

Additional observations from a re-analysis of the deposited data

How the results depend on the processing

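No paired analysis was possible because each genotype has 1 library, and none could be left out. The number of all genes 2-fold apart was 102 and became 61 with a pseudocount of 5 CPM. It became 129 with a pseudocount of 0.1 CPM, and 153 with no minimum or a minimum of 1 CPM. The number of clock genes 2-fold apart was 0 under each pseudocount, minimum, scaling and length correction run; a fold threshold of 1.5 gave 2 and the 25% limit gave 8. The morning median of -0.03 became 0.020 under median-ratio scaling, 0.018 under trimmed-mean scaling, 0.057 with the length trend subtracted and 0.0085 as a mean. The evening median of -0.20 became -0.11 with the length trend subtracted, -0.26 as a mean and -0.13 without COR27 and COR28. The evening minus morning difference of -0.17 became -0.27 as a mean and -0.10 without COR27 and COR28, and stayed negative under each alternative run. The length correction and the removal of COR27 and COR28 were chosen after seeing the data. The median difference over all genes moved by 0.046 under median-ratio and 0.044 under trimmed-mean scaling. Another scaling left 20 of the 36 members lower in place of 24, with 5 in place of 6 lower and 3 in place of 2 higher past the 25% limit. There were 286 values of single members under other settings. They include the settings of the minimum, which cannot change the value of a single gene. Of the 286, 35 moved by more than the distance from the centre to the end of their counting interval, on the log2 scale. The other sign was seen in 11, for CCA1, GRP8, PIF5, PRR9 and RVE6. The cause was not tested. Depth limits BOA, with 80 and 57 reads, and the spread between plants was not measured.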
